A study of Mus musculus with 6 samples.

Results

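Retinoic acid, the active derivative of vitamin A, is made and removed inside cells, and the 9 genes described here cover that route: *Rbp4* and *Stra6* (retinol carriage and uptake), *Aldh1a1*, *Aldh1a2* and *Aldh1a3* (synthesis), *Crabp1* and *Crabp2* (binding inside the cell), *Rarb* (a receptor) and *Cyp26b1* (degradation). They were chosen by name, as the rows of the deposited table whose symbol equals one of these, and all 9 were found among 18112 genes. Retinol travels in blood bound to Rbp4 and enters cells through Stra6. It is oxidised to retinal and then, by the Aldh1a enzymes, to retinoic acid, which binds nuclear receptors that pair with retinoid X receptors on DNA, and Cyp26 enzymes break it down. In the vessel wall, retinoids are known to act on the growth and differentiation of smooth muscle cells, and during development Aldh1a2 marks epicardium and other mesothelial layers.

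RNA came from primary aortic smooth muscle cells of C57BL/6 mice, 3 libraries with floxed *Smyd2* (Smyd2 fl/fl, the controls) and 3 in which *Smyd2* was deleted by Cre under the *Tagln* (SM22α) promoter (Smyd2 SMC-/-). The study's methods describe young adult littermates, cells grown from the medial layer after removal of endothelium and adventitia, an earlier passage and overnight starvation, whereas the labels give passage 6 and medium with 10% serum. Among its limitations the study names expression of *Tagln* outside smooth muscle. Nothing in the labels says whether the 3 libraries of a group came from separate mice or cultures, so that p-values measure the spread between these libraries only.

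Levels are FPKM, the fragments of a gene relative to its length and to the size of its library, so that genes can be compared per length. Depth was inferred from the spacing of low values, at 18500000, 19800000 and 19650000 fragments for control replicates 1 to 3 and 17200000, 19250000 and 19150000 fragments for Smyd2 SMC-/- replicates 1 to 3. A single fragment on 2000 bases of transcript was then worth 0.0262 to 0.0301 FPKM, and members near that level rest on a few fragments. Differences were tested by limma on log2(FPKM + 1) over the 12565 genes that averaged 0.5 FPKM or more, with p-values adjusted by Benjamini-Hochberg, and a gene was called at an adjusted p under 0.05. Because 1 is added to each value, fold changes of genes at low FPKM come out too small.

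The deleted gene was measured first. *Smyd2* was at 7.87, 3.10 and 3.0 FPKM across control replicates 1 to 3, against 1.67, 0.40 and 0.80 FPKM across Smyd2 SMC-/- replicates 1 to 3. The deletion libraries were all lower than the controls, while fragments of the gene were still counted in each of them. By the study's methods the floxed stretch is part of the gene, and FPKM of the whole gene do not tell shortened from intact transcript. The log2 fold change was -1.48 (standard error 0.389, limma's adjusted p = 0.105), and blocking on replicate number gave an adjusted p of 0.0189 from limma (0.00126 to 0.305 over the alternatives). The exact two-sided permutation p was 0.1, the smallest that 3 against 3 libraries can give.

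The replicate 1 libraries stood apart from the others. The first principal component took 50.2% of the variance and placed replicate 1 of each genotype below replicates 2 and 3 of that genotype. Results are therefore given over all libraries and in replicates 2 and 3 alone, where each group holds 2 libraries.

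The smooth muscle label was checked against 8 markers. *Acta2*, the most abundant, was at 761.48, 682.39 and 682.96 FPKM across control replicates 1 to 3, against 200.95, 267.89 and 262.10 FPKM across Smyd2 SMC-/- replicates 1 to 3. The 8 markers summed to 922.0, 821.4 and 814.1 FPKM across control replicates 1 to 3, against 263.3, 428.9 and 376.5 FPKM across Smyd2 SMC-/- replicates 1 to 3. Most of each sum was *Acta2*, so that the sums largely repeat that gene. *Acta2* was lower in every Smyd2 SMC-/- library (log2 fold change -1.55, limma's adjusted p = 0.00803) and was the single marker of its list called over all libraries. *Lmod1* was called higher in replicates 2 and 3 alone (0.83, limma's adjusted p = 0.00335, and up to 0.996 over the alternatives), and its log2 fold change of 0.24 over all libraries was 0.77 without Smyd2 SMC-/- replicate 1 (limma's adjusted p = 0.0489) and -0.06 without Smyd2 SMC-/- replicate 3. For *Acta2*, leaving out control replicate 2, control replicate 3 or Smyd2 SMC-/- replicate 3 ended the call, with fold changes of -1.57, -1.57 and -1.61 on the log2 scale and limma's adjusted p of 0.0541, 0.0615 and 0.0533. The other tested markers *Tagln*, *Cnn1* and *Smtn* were not called, at -0.92, -0.91 and -0.05 (limma's adjusted p of 0.496, 0.399 and 0.900). *Tagln* and *Cnn1* were lowest in Smyd2 SMC-/- replicate 1, at 12.46 and 2.70 FPKM, and in replicates 2 and 3 alone were at -0.08 and -0.07. The defining contractile and regulatory markers *Myh11*, *Des* and *Myocd* stayed under 0.5 FPKM in each library.

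Retinol carriage and uptake genes were barely expressed. *Rbp4*, which carries retinol in blood, lies at chr19:38116629-38125281 of GRCm38 and was at 0.19, 0.59 and 0.36 FPKM across control replicates 1 to 3, against 0.07, 0.42 and 1.15 FPKM across Smyd2 SMC-/- replicates 1 to 3. The groups overlapped, and the lowest library of each was replicate 1. *Stra6*, the membrane receptor for retinol bound to Rbp4 (chr9:58063788-58153996), was at 0.04, 0.06 and 0.04 FPKM across control replicates 1 to 3, against 0, 0.25 and 0.08 FPKM across Smyd2 SMC-/- replicates 1 to 3. These levels rest on few fragments, and the groups overlapped.

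*Aldh1a1* carried most of the RNA of the synthesis step. The gene, at chr19:20492715-20643465, encodes a retinal dehydrogenase that many adult tissues express, and it was at 62.58, 148.08 and 122.18 FPKM across control replicates 1 to 3, against 10.40, 147.92 and 138.41 FPKM across Smyd2 SMC-/- replicates 1 to 3. Replicate 1 was the lowest library of each genotype, and among replicates 2 and 3 the genotypes overlapped. Means were 110.9 ± 43.8 FPKM (SD, n = 3) for the controls and 98.9 ± 76.8 FPKM (SD, n = 3) for Smyd2 SMC-/-. Its log2 fold change of -0.77 (standard error 1.00, limma's adjusted p = 0.731) turned to 0.09 in replicates 2 and 3 alone (limma's adjusted p = 0.641) and to 0.45 without Smyd2 SMC-/- replicate 1 (limma's adjusted p = 0.476), and stood at -1.40 without Smyd2 SMC-/- replicate 2 and -1.35 without Smyd2 SMC-/- replicate 3, with adjusted p from 0.341 to 0.881 over the alternatives. Of the 50-base stretches in its annotated transcripts, 3.06% also occur in *Aldh1a7*, a close relative. Only exact matches were counted, and 4 of its 5 transcripts in the deposited data are the authors' own and were not searched. How many of its fragments are shared with *Aldh1a7* was not tested.

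*Aldh1a2* was near absent from the controls. This gene, at chr9:71215789-71296243, encodes the main retinal dehydrogenase of the embryo and was listed at 0, 0.02 and 0 FPKM across control replicates 1 to 3, about 0.9 fragments in the library above 0, and at 0.42, 5.68 and 3.32 FPKM across Smyd2 SMC-/- replicates 1 to 3, or about 15.8, 239.9 and 139.5 fragments. Every Smyd2 SMC-/- library was above every control library, and replicate 1 was the lowest of its group. Its log2 fold change was 1.78 (standard error 0.540, limma's adjusted p = 0.138), short of the threshold, with an exact two-sided permutation p of 0.1, the smallest possible. Its size depended on the scale, at 4.36 with a pseudocount of 0.1 (limma's adjusted p = 0.0673) and 2.72 after rescaling to TPM (limma's adjusted p = 0.103). It passed in replicates 2 and 3 alone (2.41, standard error 0.212, limma's adjusted p = 0.000303), without Smyd2 SMC-/- replicate 1 (2.42, limma's adjusted p = 0.00855), and with a block that sets replicate 1 against the others (limma's adjusted p = 0.0340). It did not pass when blocked on replicate number (limma's adjusted p = 0.0697), and over the alternatives the adjusted p ran from 0.000303 to 0.379. With a control mean of 0.0067 FPKM, *Aldh1a2* entered the test only through the Smyd2 SMC-/- libraries, in which it is high. Nothing is read from these calls.

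*Aldh1a3* differed less evenly. It encodes a retinal dehydrogenase of epithelia and glands, at chr7:66390890-66427517, and was at 0.16, 0.63 and 0.62 FPKM across control replicates 1 to 3, against 0.35, 5.21 and 12.05 FPKM across Smyd2 SMC-/- replicates 1 to 3. Replicates 2 and 3 of Smyd2 SMC-/- were above every control library, but replicate 1 lay inside the control range. On average the log2 fold change was 1.72 (standard error 0.776, limma's adjusted p = 0.280, exact two-sided permutation p = 0.3). It passed in replicates 2 and 3 alone (2.47, limma's adjusted p = 0.00606) and without Smyd2 SMC-/- replicate 1 (2.63, limma's adjusted p = 0.0224). Without Smyd2 SMC-/- replicate 3 it was 1.00 (limma's adjusted p = 0.600), with adjusted p from 0.00606 to 0.600 over the alternatives. With a control mean of 0.470 FPKM, *Aldh1a3* too entered the test only through its Smyd2 SMC-/- libraries, and nothing is read from its calls. Of its 50-base stretches 1.15% occur in transcripts of other genes, nearly all of these in *Casc4* (1.11%), which was at 5.80, 6.64 and 6.21 FPKM across control replicates 1 to 3, against 29.92, 33.28 and 38.88 FPKM across Smyd2 SMC-/- replicates 1 to 3. *Casc4* was thus higher in each Smyd2 SMC-/- library, replicate 1 included, where *Aldh1a3* was at 0.35 FPKM, and its part in the *Aldh1a3* values was not tested. No such stretch was shared by the other members besides *Aldh1a1*.

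Summed over the 3 synthesis genes, the level was 62.7, 148.7 and 122.8 FPKM across control replicates 1 to 3, against 11.2, 158.8 and 153.8 FPKM across Smyd2 SMC-/- replicates 1 to 3. The sum followed *Aldh1a1* and overlapped between the groups (exact two-sided permutation p = 1.0). *Aldh1a1* made up 99.7%, 99.6% and 99.5% of that sum in the controls and 93.1%, 93.1% and 90.0% in Smyd2 SMC-/-. The share was lower in each deletion library than in any control. It was chosen after the values were seen and is given without a test. Its value in Smyd2 SMC-/- replicate 1 went with the lowest *Aldh1a1* level, 10.40 FPKM, beside 0.42 FPKM of *Aldh1a2* and 0.35 FPKM of *Aldh1a3*, the latter inside the control range.

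**Figure D1:**
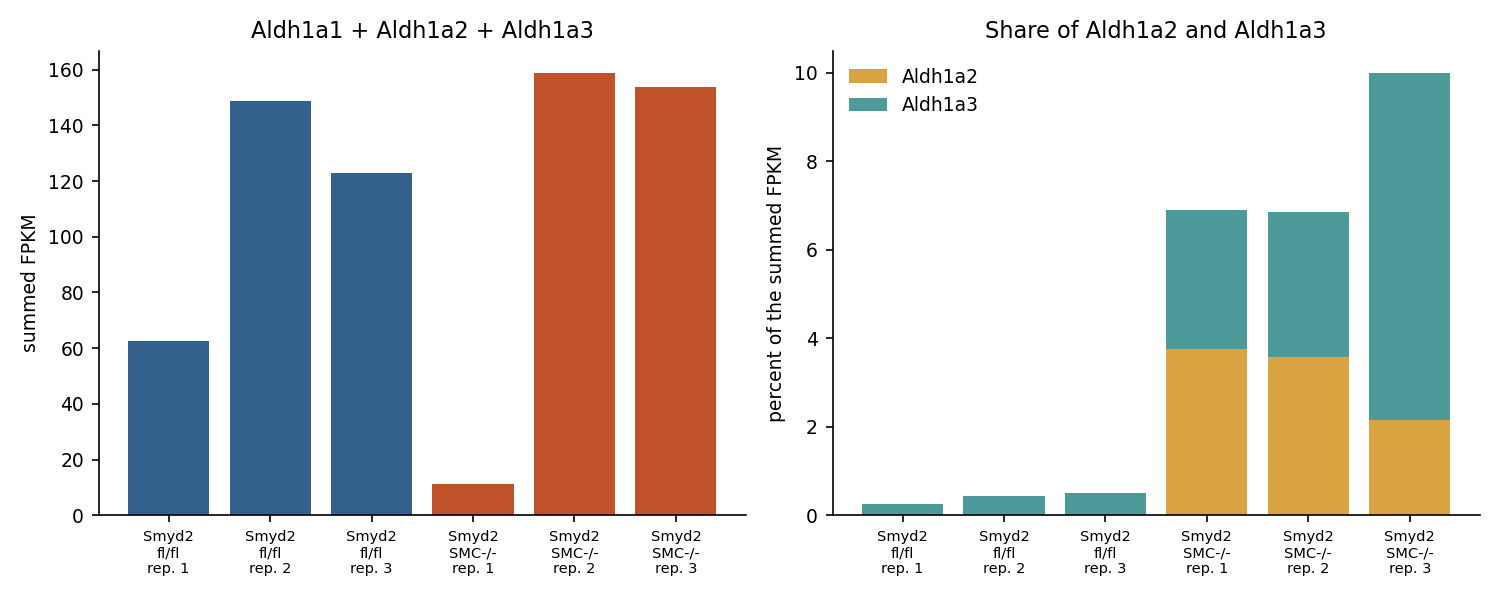
Summed FPKM of *Aldh1a1*, *Aldh1a2* and *Aldh1a3* in each library (left) and the percent of that sum from *Aldh1a2* and *Aldh1a3* (right). The sum is lowest in Smyd2 SMC-/- replicate 1 at 11.2 FPKM, while *Aldh1a2* makes up 3.76%, 3.58% and 2.16% of it in Smyd2 SMC-/- replicates 1, 2 and 3 and at most 0.013% in a control library.

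The start regions of *Aldh1a1* and *Aldh1a2* are shown because, in the synthesis step, *Aldh1a1* had the highest level and *Aldh1a2* was the gene whose groups did not overlap. RefSeq's promoter table for GRCm38.p6 held windows from 250 bases before to 50 after the start for 7 of the 9 members, with no entry for *Aldh1a3* or *Crabp2*. Both windows below hold an octamer (ATGCAAAT) and a CCAAT box (CCAAT), searched on both strands, neither overlapping the other, and marked in capitals. They were picked after the windows were read.
Aldh1a1, chr19:20601718-20602017, plus strand: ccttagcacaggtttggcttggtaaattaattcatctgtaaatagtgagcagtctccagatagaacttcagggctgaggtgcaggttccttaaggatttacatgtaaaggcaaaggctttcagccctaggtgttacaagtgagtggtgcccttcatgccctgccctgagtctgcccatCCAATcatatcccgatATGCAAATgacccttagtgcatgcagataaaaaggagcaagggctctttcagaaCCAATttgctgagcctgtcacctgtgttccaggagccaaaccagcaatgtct
Aldh1a2, chr9:71215539-71215838, plus strand: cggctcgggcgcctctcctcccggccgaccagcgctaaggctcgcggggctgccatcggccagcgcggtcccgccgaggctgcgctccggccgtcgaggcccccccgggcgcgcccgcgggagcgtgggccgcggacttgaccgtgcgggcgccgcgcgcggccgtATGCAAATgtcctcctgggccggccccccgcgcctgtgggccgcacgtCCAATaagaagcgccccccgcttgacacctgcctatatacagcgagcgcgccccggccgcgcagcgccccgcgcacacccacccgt
The octamer begins 56 bases upstream of the start in *Aldh1a1* and 84 bases in *Aldh1a2*. Of all 32851 promoter windows, 1.74% hold the octamer, 37.4% the CCAAT box and 0.858% both. G and C made up 47.0% of the *Aldh1a1* window and 78.0% of the *Aldh1a2* window, against a median of 52.7% over all windows. RefSeq holds another window for *Aldh1a1*, with 43.3% G and C, which has neither motif. A match describes the letters only.

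The binding proteins were under the filter. *Crabp1* (chr9:54764748-54773110) was at 0, 0.27 and 0.62 FPKM across control replicates 1 to 3, against 0.09, 0.07 and 0 FPKM across Smyd2 SMC-/- replicates 1 to 3. The groups overlapped. *Crabp2*, which delivers retinoic acid to the nucleus (chr3:87948666-87953376), was at 0.52, 0.36 and 0.62 FPKM across control replicates 1 to 3, against 0.07, 0.25 and 0.06 FPKM across Smyd2 SMC-/- replicates 1 to 3. Every Smyd2 SMC-/- library was below every control, at about 1.0, 4.1 and 1.0 fragments against 8.3, 6.1 and 10.5, and the exact two-sided permutation p was 0.1, the smallest possible. With no filter on low values, limma's adjusted p for *Crabp2* was 0.122.

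*Rarb*, a retinoic acid receptor gene that retinoic acid itself induces in many cells, lies at chr14:16430839-16819156. It was at 1.95, 0.25 and 0.16 FPKM across control replicates 1 to 3, against 0.42, 0.13 and 0.22 FPKM across Smyd2 SMC-/- replicates 1 to 3. Replicate 1 was the highest library of each genotype, and the groups overlapped. Its log2 fold change was -0.38 (standard error 0.378, limma's adjusted p = 0.648) and turned to 0.06 without control replicate 1 (limma's adjusted p = 0.895), was -0.04 in replicates 2 and 3 alone and -0.56 and -0.62 without control replicate 2 or 3, and was -0.76 with a pseudocount of 0.1, with adjusted p from 0.285 to 0.895 over the alternatives.

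The *Rarb* window is shown because it holds the direct repeat spaced by 5 bases that is the textbook binding sequence of retinoic acid receptors, marked in capitals.
Rarb, chr14:16575427-16575726 of GRCm38.p6, minus strand: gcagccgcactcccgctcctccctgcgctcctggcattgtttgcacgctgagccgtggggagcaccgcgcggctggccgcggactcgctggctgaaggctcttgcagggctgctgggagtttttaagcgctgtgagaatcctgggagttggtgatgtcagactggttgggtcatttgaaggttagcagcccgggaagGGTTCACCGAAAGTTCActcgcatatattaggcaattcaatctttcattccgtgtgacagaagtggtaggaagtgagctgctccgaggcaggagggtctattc
The repeat begins 53 bases upstream of the start. Searched on both strands, it was in 1 of 12 member windows, in the *Cyp26a1* window among 50 windows of other pathway genes, and in 0.0974% of all windows. The same repeat spaced by 2 bases was in 0 of 12 member windows and 0.268% of all windows, and the CArG box, the sequence that serum response factor binds at smooth muscle genes, in 0 of 12 and 1.63%.

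*Cyp26b1*, which breaks retinoic acid down, was the most abundant member after *Aldh1a1*. The gene, at chr6:84571414-84593908, was at 11.61, 7.03 and 8.06 FPKM across control replicates 1 to 3, against 4.32, 8.19 and 14.32 FPKM across Smyd2 SMC-/- replicates 1 to 3. Replicate 1 was the highest control and the lowest Smyd2 SMC-/- library, and the groups overlapped. Means were 8.90 ± 2.40 FPKM (SD, n = 3) for the controls and 8.94 ± 5.04 FPKM (SD, n = 3) for Smyd2 SMC-/-. The log2 fold change was -0.10 (standard error 0.393, limma's adjusted p = 0.928). It turned to 0.48 in replicates 2 and 3 alone (limma's adjusted p = 0.194), 0.29 without Smyd2 SMC-/- replicate 1 (limma's adjusted p = 0.576), 0.09 without control replicate 1 (limma's adjusted p = 0.928) and 0.01 after rescaling to TPM (limma's adjusted p = 0.997), which shifted the median of all genes by 0.113.

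**Figure D2:**
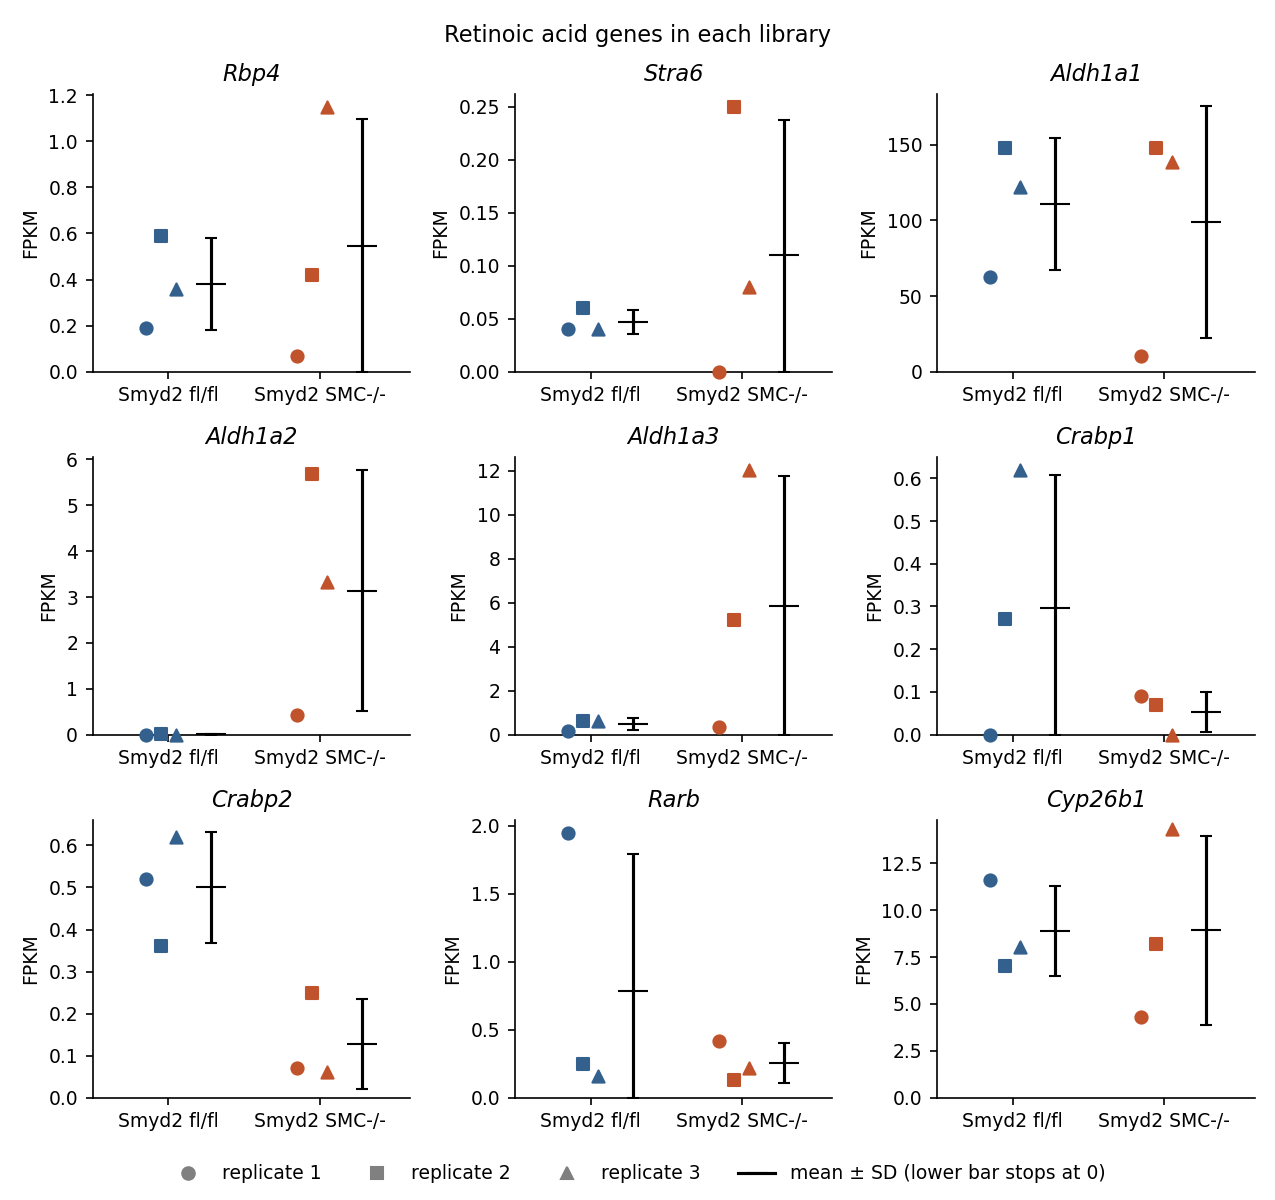
FPKM of the 9 genes in each library, with the mean and SD of 3 libraries beside the points and the lower bar stopped at 0. *Aldh1a2* and *Crabp2* are the genes whose groups do not overlap, with *Aldh1a2* between 0.42 and 5.68 FPKM in Smyd2 SMC-/- and at most 0.02 FPKM in the controls.

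By mean over the 6 libraries the order was *Aldh1a1* (104.9 FPKM), *Cyp26b1* (8.92), *Aldh1a3* (3.17), *Aldh1a2* (1.57), *Rarb* (0.522), *Rbp4* (0.463), *Crabp2* (0.313), *Crabp1* (0.175) and *Stra6* (0.0783). That order pools groups that differed by gene. In the controls it was *Aldh1a1*, *Cyp26b1*, *Rarb*, *Crabp2*, *Aldh1a3*, *Rbp4*, *Crabp1*, *Stra6* and *Aldh1a2*, and in Smyd2 SMC-/- it was *Aldh1a1*, *Cyp26b1*, *Aldh1a3*, *Aldh1a2*, *Rbp4*, *Rarb*, *Crabp2*, *Stra6* and *Crabp1*. Steps larger than the larger SD of the neighbours were those below *Aldh1a1*, *Cyp26b1* and *Stra6* in the controls, and the one below *Aldh1a1* in Smyd2 SMC-/-. The other neighbours did not differ beyond their spread. Of the 9 members 5 passed the filter on low FPKM and 4 did not. *Aldh1a2* and *Aldh1a3* had control means of 0.0067 and 0.470 FPKM and passed only through their Smyd2 SMC-/- libraries. *Rarb* passed through control replicate 1 alone, at 1.95 FPKM, with every other library at or below 0.42 FPKM.

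Over all libraries 0 of the 5 tested members were called by limma, against 2.44% of 12565 genes. At an unadjusted p under 0.05 there was 1, *Aldh1a2*, against 20.3% of all genes. Blocked on replicate number, 0 of 5 were called against 10.4% of all genes, and with the block for replicate 1 alone 1 of 5 against 20.3%. In replicates 2 and 3 alone 2 of 5 were called, both higher, against 29.0%. These were *Aldh1a2* and *Aldh1a3*, and the member called with the block for replicate 1 was *Aldh1a2*. Both genes entered the test through the libraries in which they are high, so that nothing is read from these counts.

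Groups did not overlap in 2 of the 9 members, against 23.0% of the 18112 genes in the table. Of these *Aldh1a2* was higher in each Smyd2 SMC-/- library, as were 10.9% of all genes, and *Crabp2* lower, as were 12.0%. The members' share was thus close to that of all genes.

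Within each replicate number, the difference on the log2(FPKM + 1) scale was 0.51, 2.71 and 2.11 for *Aldh1a2* and 0.22, 1.93 and 3.01 for *Aldh1a3* in replicates 1, 2 and 3. Both were positive in each pair. *Crabp2* was negative in each, at -0.51, -0.12 and -0.61. The other members changed sign between pairs.

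**Figure D3:**
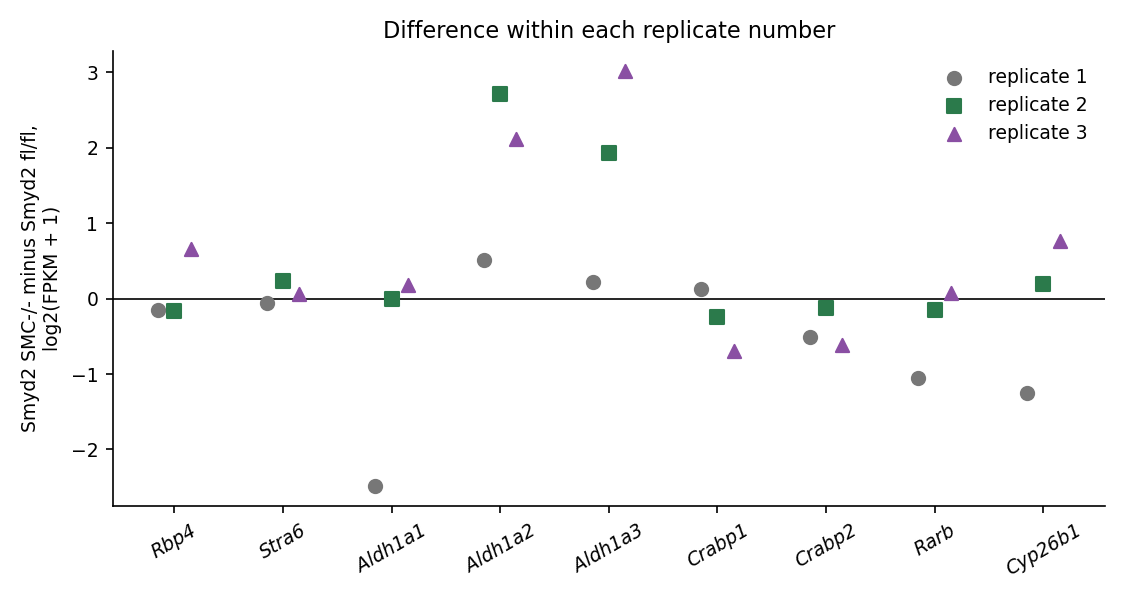
Difference between the Smyd2 SMC-/- and the control library of the same replicate number, on the log2(FPKM + 1) scale, for each gene. *Aldh1a1* spans -2.48 in replicate 1 to 0.18 in replicate 3, and *Aldh1a2* and *Aldh1a3* lie above 0 in each pair.

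Markers of other cell types moved with replicate number and in part with genotype. The 7 adventitial fibroblast markers summed to 300.8, 918.0 and 783.6 FPKM across control replicates 1 to 3, against 81.1, 571.2 and 515.6 FPKM across Smyd2 SMC-/- replicates 1 to 3, with *Dcn* the most abundant by mean over the 6 libraries, at 13.88, 311.00 and 256.65 FPKM and 25.59, 382.86 and 350.45 FPKM. *Ly6a* was above *Dcn* in each control library, at 52.57, 377.66 and 327.34 FPKM, and *Dpt* was the highest in control replicate 1 at 143.88 FPKM. The sum was lowest in replicate 1 of each genotype, as *Aldh1a1* was. *Dpt* was called lower in Smyd2 SMC-/- (log2 fold change -5.28, limma's adjusted p = 0.00417). With the replicate block *Cd34* (-2.85) and *Ly6a* (-1.09) were called lower too, with limma's adjusted p of 0.0269 and 0.0404, against 0.00023 to 0.210 and 0.000336 to 0.823 over the alternatives. *Cd34* was also called without Smyd2 SMC-/- replicate 1 (-2.12, limma's adjusted p = 0.0121), and *Ly6a* ran from -1.99 without control replicate 1 to -0.46 without Smyd2 SMC-/- replicate 1. *Pdgfra* was lower in each Smyd2 SMC-/- library, at 11.82, 4.85 and 7.10 FPKM against 18.08, 31.85 and 29.77 FPKM (-1.66, limma's adjusted p = 0.0601, or 0.00012 in replicates 2 and 3 alone and 0.0265 without Smyd2 SMC-/- replicate 1, and up to 0.232 over the alternatives). *Pi16* was lower in each pair (-1.32, limma's adjusted p = 0.304, or 0.0127 in replicates 2 and 3 alone, and up to 0.574 over the alternatives). *Lum* went the other way, at 0, 1.31 and 1.17 FPKM across control replicates 1 to 3, against 0.26, 14.51 and 10.39 FPKM across Smyd2 SMC-/- replicates 1 to 3 (log2 fold change 1.82, limma's adjusted p = 0.342, or 7.4e-05 in replicates 2 and 3 alone, the lowest of the alternatives, which reached 0.673). Its fold change was 2.96 without Smyd2 SMC-/- replicate 1 (limma's adjusted p = 0.0231) and 1.15 without Smyd2 SMC-/- replicate 2. *Dcn* was also higher in each pair (0.53, limma's adjusted p = 0.890), though its sign turned without control replicate 1 (-0.89) and without Smyd2 SMC-/- replicate 2 (-0.14) or 3 (-0.07). With the block for replicate 1 alone 5 of the 7 were called lower and 2 higher, against 20.3% of all genes.

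The 7 mesothelial or epicardial markers in the table summed to 73.6, 217.3 and 220.3 FPKM across control replicates 1 to 3, against 45.6, 313.7 and 182.2 FPKM across Smyd2 SMC-/- replicates 1 to 3. *Upk1b*, their most abundant gene by mean over the 6 libraries, was at 3.92, 44.03 and 47.66 FPKM across control replicates 1 to 3, against 10.38, 125.75 and 73.89 FPKM across Smyd2 SMC-/- replicates 1 to 3. *Wt1*, a transcription factor of these cells, was at 0.68, 2.80 and 2.73 FPKM across control replicates 1 to 3, against 1.98, 5.97 and 5.23 FPKM across Smyd2 SMC-/- replicates 1 to 3. In the controls *Krt19* was higher than *Upk1b* in each library, at 47.82, 57.64 and 54.31 FPKM, against 8.71, 20.53 and 8.53 FPKM in Smyd2 SMC-/-. The summed level was lowest in replicate 1 of both genotypes, and *Krt19* was called lower in Smyd2 SMC-/- (log2 fold change -2.10, limma's adjusted p = 0.0317). That call ended without control replicate 1, 2 or 3 (limma's adjusted p of 0.0607, 0.142 and 0.144, at -2.18, -2.05 and -2.09), without Smyd2 SMC-/- replicate 3 (-1.90, limma's adjusted p = 0.138) and with no filter on low values (limma's adjusted p = 0.0555). With the replicate block *Wt1* (0.81), *Upk1b* (1.11) and *Upk3b* (1.01) were called higher, with limma's adjusted p of 0.0330, 0.0333 and 0.0491. Over the alternatives the adjusted p ran from 0.00429 to 0.679, from 0.0140 to 0.993 and from 0.0305 to 0.881 for these genes. Without control replicate 1 their log2 fold changes were 0.43, 0.02 and 0.36, and without Smyd2 SMC-/- replicate 2 those of *Upk1b* and *Upk3b* were 0.40 and 0.38. *Msln* and *Lrrn4* were called lower in replicates 2 and 3 alone (-1.46 and -1.17, limma's adjusted p of 0.000965 and 0.0159) but not over all libraries (-0.91 and -0.96, limma's adjusted p of 0.748 and 0.691, and up to 0.968 and 0.962 over the alternatives). Leaving out 1 library moved these from -2.27 without control replicate 1 to -0.10 without Smyd2 SMC-/- replicate 1 for *Msln*, and from -2.03 to -0.10 without the same libraries for *Lrrn4*. The 7 markers thus split into 3 called lower and 3 called higher in replicates 2 and 3 alone, against 29.0% of all genes. In these bulk samples fewer cells of a type and less RNA per cell cannot be told apart, and the part of these cell types in the values of *Aldh1a1* and *Aldh1a2* was not tested.

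Markers of other cell types were at low levels, apart from *Tubb3* in the Schwann cell and neuron list. Of 6 endothelial markers, with sums of 1.30, 1.69 and 1.97 FPKM across control replicates 1 to 3 and 1.33, 5.41 and 2.99 FPKM across Smyd2 SMC-/- replicates 1 to 3, *Kdr* had the highest mean over the 6 libraries and *Cdh5* and *Tie1* stayed at or below 0.01 FPKM. *Kdr* was higher in each Smyd2 SMC-/- library, at 0.96, 5.15 and 2.96 FPKM against 0.47, 0.58 and 0.84 FPKM (log2 fold change 1.16, limma's adjusted p = 0.186, or 0.00260 in replicates 2 and 3 alone, and up to 0.441 over the alternatives). *Pecam1* was lower in each, at 0.12, 0.18 and 0 FPKM against 0.56, 0.88 and 0.92 FPKM, and was under the filter. The 5 macrophage and leukocyte markers summed to between 3.91 and 6.29 FPKM, most of it from *Cd68*, with *Ptprc*, *Adgre1* and *Itgam* at or below 0.02 FPKM. *Csf1r* was higher in each Smyd2 SMC-/- library, at 1.66, 1.42 and 1.14 FPKM against 0.58, 0.53 and 0.48 FPKM (log2 fold change 0.65, limma's adjusted p = 0.102, or 0.0192 in replicates 2 and 3 alone, and up to 0.292 over the alternatives). The 3 adipocyte markers in the table summed to at most 0.09 FPKM, led by *Adipoq*, and of the 4 Schwann cell and neuron markers, at 19.24 to 38.54 FPKM, *Tubb3* held nearly all and *Sox10* stayed at or below 0.02 FPKM.

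**Figure D4:**
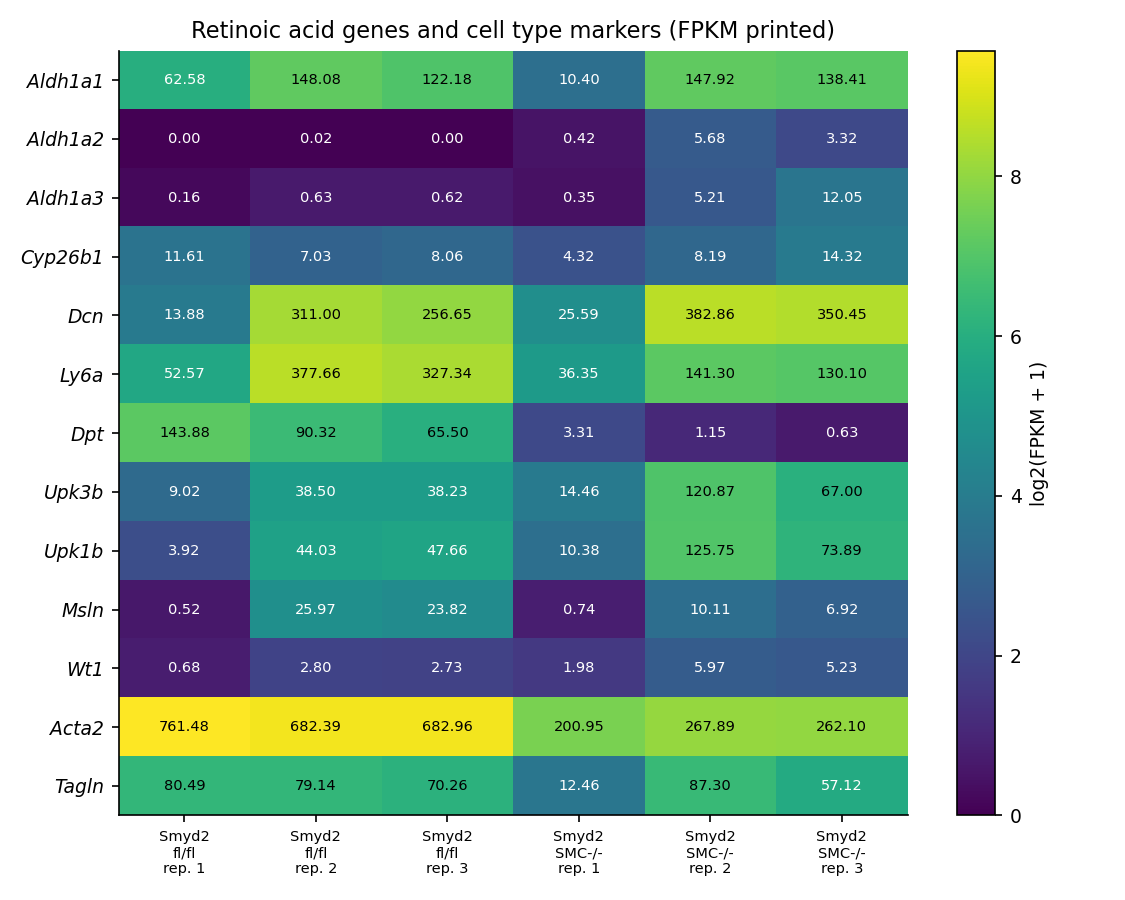
FPKM of some of the retinoic acid genes and some of the fibroblast, mesothelial and smooth muscle markers in each library, coloured by log2(FPKM + 1). Markers not drawn include *Pdgfra*, *Cd34*, *Pi16*, *Lum*, *Krt19* and *Lrrn4*. *Aldh1a1*, *Dcn* and *Upk1b* are lowest in the replicate 1 library of each genotype. *Dpt* is highest there, at 143.88 FPKM in the controls and 3.31 FPKM in Smyd2 SMC-/-. *Acta2* is lower in each Smyd2 SMC-/- library, at most 267.89 FPKM against at least 682.39 FPKM.

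Among other genes of the pathway, 50 were in the table and 29 passed the filter. By limma 0 of 29 were called over all libraries, against 2.44% of all genes, and 4 at an unadjusted p under 0.05, against 20.3%. The median log2 fold change was 0.01, against -0.02 over all genes. With the replicate block 3 of 29 were called, all higher, against 10.4% of all genes, namely *Dhrs3*, *Ncoa1* and *Rarres1*, chosen for description after their values were seen.

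*Dhrs3*, an enzyme that reduces retinal back to retinol, was at 0.50, 6.27 and 5.48 FPKM across control replicates 1 to 3, against 3.66, 13.85 and 9.04 FPKM across Smyd2 SMC-/- replicates 1 to 3. The Smyd2 SMC-/- library was the higher one in each pair, though the groups overlapped. The log2 fold change was 1.10 (limma's adjusted p = 0.445, or 0.0445 with the replicate block, and 0.0168 to 0.719 over the alternatives), and it was 0.37 without control replicate 1 and 0.73 without Smyd2 SMC-/- replicate 2. *Rarres1*, a gene named for its response to retinoids, was at 12.83, 24.61 and 18.43 FPKM across control replicates 1 to 3, against 28.40, 32.38 and 46.13 FPKM across Smyd2 SMC-/- replicates 1 to 3, a log2 fold change of 0.92 (limma's adjusted p = 0.136, or 0.0494 with the replicate block, and 0.0161 to 0.379 over the alternatives). These groups did not overlap. *Ncoa1*, a coactivator of nuclear receptors, was at 1.98, 2.07 and 2.56 FPKM across control replicates 1 to 3, against 5.46, 4.01 and 5.12 FPKM across Smyd2 SMC-/- replicates 1 to 3, a log2 fold change of 0.87 (limma's adjusted p = 0.0592, or 0.0369 with the replicate block, and 0.0124 to 0.239 over the alternatives). These groups did not overlap either, and *Ncoa1* was also called after rescaling to TPM and after quantile normalization.

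Other fits called some of the list lower. With the block for replicate 1 alone 3 were called higher and 2 lower, *Rara* and *Nrip1*, against 20.3% of all genes, and in replicates 2 and 3 alone 4 higher and 2 lower, *Nrip1* and *Bhlhe40*, against 29.0%. *Rara*, a retinoic acid receptor gene, was lower in each Smyd2 SMC-/- library, at 11.19, 13.03 and 13.75 FPKM against 18.62, 16.45 and 17.22 FPKM (-0.44, limma's adjusted p = 0.139, and 0.0405 to 0.327 over the alternatives). *Nrip1*, a corepressor of nuclear receptors, was lower in each pair (-0.60, limma's adjusted p = 0.259, and 0.00346 to 0.534 over the alternatives). *Dhrs9*, a dehydrogenase that can act on retinol, was higher in each Smyd2 SMC-/- library, at 0.19, 2.91 and 1.59 FPKM against 0.04, 0.04 and 0.06 FPKM (1.13, limma's adjusted p = 0.205), and passed in replicates 2 and 3 alone (limma's adjusted p = 0.00148) and without Smyd2 SMC-/- replicate 1 (limma's adjusted p = 0.0224), with adjusted p up to 0.476 over the alternatives. Its fold change was 2.96 with a pseudocount of 0.1, 1.84 after rescaling to TPM and 0.75 without Smyd2 SMC-/- replicate 2. Like *Aldh1a2*, it passed the filter only through its Smyd2 SMC-/- libraries. *Bhlhe40* had a log2 fold change of 0.01 over all libraries (limma's adjusted p = 0.993), -0.87 in replicates 2 and 3 alone (limma's adjusted p = 0.00581), -0.58 without control replicate 1 and -0.27 without Smyd2 SMC-/- replicate 1, with adjusted p up to 1.0 over the alternatives.

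The 3 most abundant of the list were *Rarg*, *Fabp5* and *Ncor1*. *Rarg*, a retinoic acid receptor gene, was at 79.59, 77.31 and 77.15 FPKM across control replicates 1 to 3, against 85.30, 62.11 and 67.08 FPKM across Smyd2 SMC-/- replicates 1 to 3, with overlapping groups (limma's adjusted p = 0.670). It made up between 79.5% and 88.0% of the summed FPKM of *Rara*, *Rarb* and *Rarg* in a library, and *Rarb* at most 1.95%. *Fabp5*, a fatty acid binding protein that also carries retinoic acid, was at 78.93, 58.76 and 51.73 FPKM across control replicates 1 to 3, against 147.19, 36.90 and 46.95 FPKM across Smyd2 SMC-/- replicates 1 to 3. The highest library of each genotype was replicate 1. Its log2 fold change of 0.03 (limma's adjusted p = 0.981) turned to -0.40 in replicates 2 and 3 alone, -0.57 without Smyd2 SMC-/- replicate 1, -0.0076 without control replicate 2 and -0.10 without control replicate 3, with limma's adjusted p from 0.0652 to 0.997 over the alternatives. *Ncor1*, a corepressor of these receptors, lay between 39.75 and 57.24 FPKM in each library. The other degradation genes *Cyp26a1* and *Cyp26c1* stayed at or below 0.11 FPKM, so that *Cyp26b1* held nearly all RNA of that step.

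**Figure D5:**
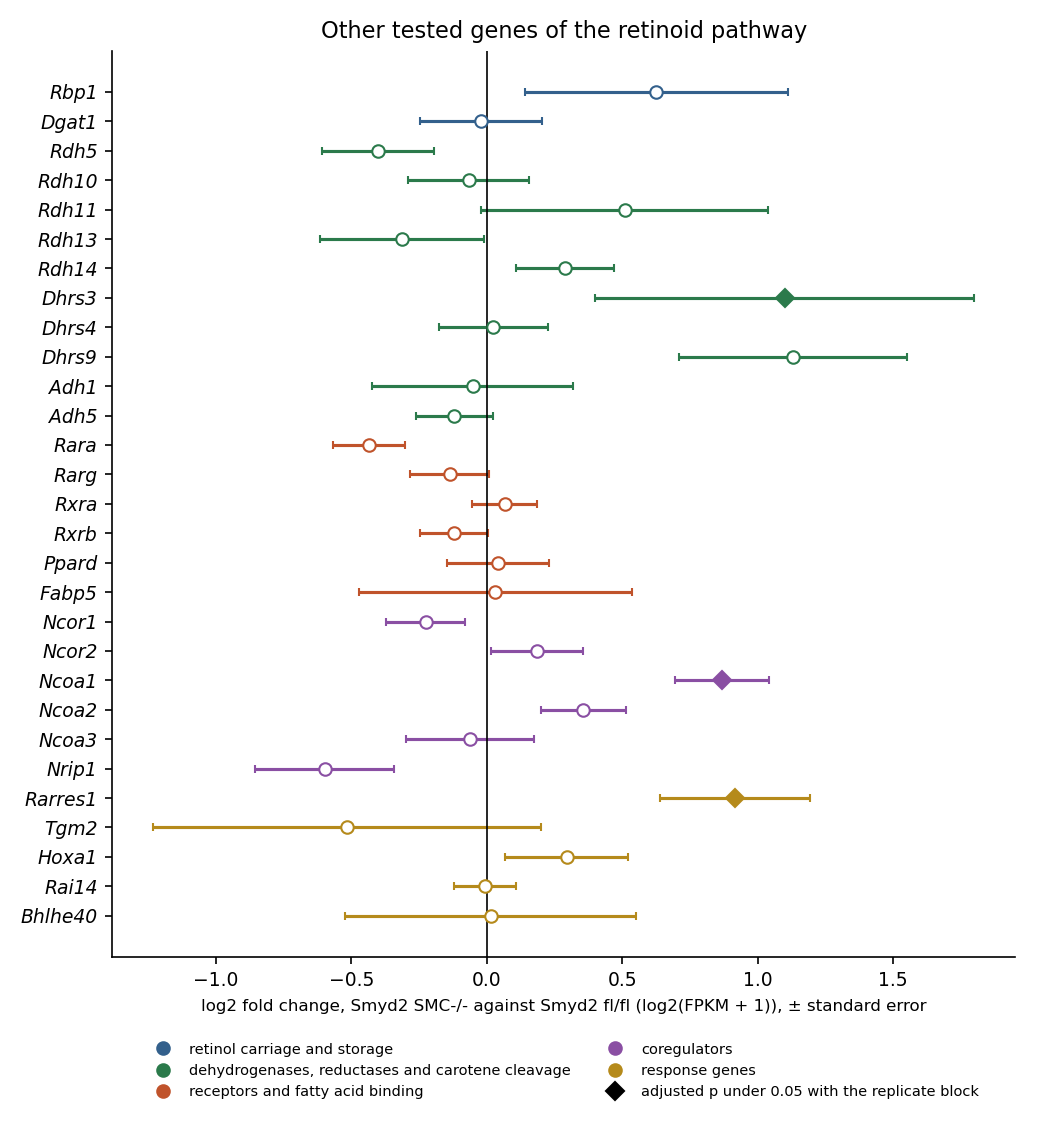
Log2 fold change and standard error of the 29 tested pathway genes, coloured by role, from the fit without a block. Filled diamonds mark the 3 genes called with the replicate block, at 1.10 (*Dhrs3*), 0.87 (*Ncoa1*) and 0.92 (*Rarres1*).

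Genes with profiles most like *Aldh1a2* and *Aldh1a3*, the tested members with the highest absolute log2 fold changes, were found by the root mean square difference between log2(FPKM + 1) values, each gene centred on its mean over 6 libraries. Nearest to *Aldh1a2* were *Vldlr* (0.123), *Sfrp2* (0.15) and *Serpina9* (0.155) among 12564 other genes. *Vldlr* was at 0.03, 0.20 and 0.22 FPKM across control replicates 1 to 3, against 0.63, 5.37 and 3.96 FPKM across Smyd2 SMC-/- replicates 1 to 3. Because *Vldlr* was chosen for a profile like that of *Aldh1a2*, nothing is read from its low replicate 1. Nearest to *Aldh1a3* were *Mamdc2* (0.297), *Vegfd* (0.369) and *Inhbb* (0.399). These lay farther off than the neighbours of *Aldh1a2*.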

How the data were processed

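Poly-A RNA of 6 libraries was sequenced. Reads were cleaned by SOAPnuke and aligned by HISAT and Bowtie2, and the authors deposited FPKM values from RSEM, rounded to 2 decimals. Tool versions and genome build are not given in the sources used here. FPKM are not counts, so the test for counts that the design also named was not used. Genotype and replicate came from the labels. log2(FPKM + 1) was compared with limma 3.58.1 (lmFit, eBayes with trend and robust) in R 4.3.3, with Benjamini-Hochberg adjustment, and the fits were tested on simulated data. Single values were compared by exact permutation with scipy 1.17.1 in Python 3.11.15.

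Deviations from the group mean were correlated over genes between libraries of the same number, at 0.61, 0.46 and 0.53 for replicates 1, 2 and 3, each above 0.1, so the numbers were taken to pair the libraries. Control replicate 2 with Smyd2 SMC-/- replicate 3 gave 0.46 and control replicate 3 with Smyd2 SMC-/- replicate 2 gave 0.44, so that the correlations set replicate 1 apart and do not tell 2 from 3. The study names no pairing, and the block was an alternative. Depth was estimated from 4343 genes with 1 transcript of known length, less 70 bases. Depth and offset were those that put most low values near a whole fragment (69.4% to 72.1% within 0.15), so that this share is no independent check and fragment numbers are approximate.

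Named genes are the 9 members, *Smyd2*, pathway genes called or among the 3 most abundant, the most abundant, called and near-absent markers, other markers and pathway genes called under an alternative (added after their values were seen), and the 3 nearest profiles of 2 members. Named outside these rules were aldehyde dehydrogenase genes, *Casc4*, *Cyp26a1*, *Cyp26c1*, *Tgm2*, *Pecam1* and the smooth muscle markers *Tagln*, *Cnn1* and *Smtn*. Members and lists were chosen with earlier results of these data known. Gene positions are from GENCODE M21 (GRCm38), since the table gives none, and promoters from RefSeq. Alternatives were a pseudocount of 0.1, no filter, a block by replicate or for replicate 1, replicates 2 and 3 alone, TPM, quantile normalization, a fold change above 2 with an adjusted p under 0.01, and leaving out each library.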

Additional observations from a re-analysis of the deposited data

How the results depend on the processing

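The log2 fold change of *Smyd2* was -1.48 over all libraries and passed the threshold with the replicate block (-1.48), with the block for replicate 1 (-1.48) and in replicates 2 and 3 alone (-1.35), and it ran from -1.73 to -1.10 when 1 library was left out. Members called numbered 0, and 1 with the block for replicate 1, 2 in replicates 2 and 3 alone, and 0 to 2 with 1 library left out. Those called were *Aldh1a2* and *Aldh1a3*, which entered the test through the libraries in which they are high. All genes called numbered 306, and 1312 with the replicate block, 2550 with the block for replicate 1, 3650 in replicates 2 and 3 alone, 53 at the stricter threshold (adjusted p under 0.01, fold change above 2), and 34 to 686 with 1 library left out, where a group holds 2 libraries. TPM turned the 152 lower and 154 higher genes into 99 and 247. Pathway genes called numbered 0, and 3 with the replicate block, 5 with the block for replicate 1, 6 in replicates 2 and 3 alone, 1 after rescaling to TPM, 1 after quantile normalization, and 0 to 1 with 1 library left out. Among the members the replicate block changed no call.

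Direction turned for *Aldh1a1* in replicates 2 and 3 alone (0.0885) and without Smyd2 SMC-/- replicate 1 (0.452; -1.40 to 0.452 with 1 library left out), for *Cyp26b1* in replicates 2 and 3 alone (0.476), after TPM (0.00519) and without replicate 1 of the controls (0.0905) or of Smyd2 SMC-/- (0.288; -0.475 to 0.288 with 1 library left out), for *Aldh16a1* (-0.477 to 0.0657 with 1 library left out), for *Bhlhe40* in replicates 2 and 3 alone (-0.866; -0.583 to 0.352 with 1 library left out), for *Dcn* (-0.889 to 1.79) and *Lmod1* (-0.0567 to 0.774) with 1 library left out, for *Fabp5* in replicates 2 and 3 alone (-0.397) and without Smyd2 SMC-/- replicate 1 or control replicate 2 or 3 (-0.567 to 0.417 with 1 library left out), and for *Rarb* without control replicate 1 (0.0550; -0.618 to 0.0550 with 1 library left out). The untested *Rbp4* (0.115) and *Stra6* (0.0786) differences turned to -0.153 without Smyd2 SMC-/- replicate 3 and -0.0102 without Smyd2 SMC-/- replicate 2. The cause was not tested. The test on counts was not run, as the table holds FPKM.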

Other observations

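Among the 21 aldehyde dehydrogenase genes in the table, named after their values were seen, *Aldh1a1* had the highest mean and *Aldh2*, the mitochondrial enzyme that oxidises acetaldehyde, followed at 88.4 FPKM. In Smyd2 SMC-/- replicate 1 *Aldh2*, at 86.48 FPKM, was above *Aldh1a1*, at 10.40 FPKM, as were other genes of the family. Of the 17 that were tested, limma called 0 over all libraries and 3 had an unadjusted p under 0.05, against 2.44% and 20.3% of all genes. With the replicate block 1 was called lower (*Aldh3b1*) and 2 higher (*Aldh6a1* and *Aldh7a1*), against 10.4% of all genes. In replicates 2 and 3 alone 3 were called lower and 6 higher, against 29.0%, among them the members *Aldh1a2* and *Aldh1a3*, which entered the test through the libraries in which they are high. *Aldh1a7* was at 6.91, 9.50 and 9.99 FPKM across control replicates 1 to 3, against 6.47, 24.93 and 15.49 FPKM across Smyd2 SMC-/- replicates 1 to 3 (0.60, limma's adjusted p = 0.511, or 0.0179 in replicates 2 and 3 alone, and up to 0.856 over the alternatives), and its log2 fold change was 1.09 without Smyd2 SMC-/- replicate 1 and 0.19 without Smyd2 SMC-/- replicate 2. *Aldh1l1* was higher in each Smyd2 SMC-/- library, at 9.46, 3.22 and 4.63 FPKM against 1.55, 2.45 and 1.82 FPKM (1.11, limma's adjusted p = 0.146, or 0.0360 in replicates 2 and 3 alone, and up to 0.339 over the alternatives). *Aldh9a1* and *Aldh16a1* were called lower in replicates 2 and 3 alone (-0.50 and -0.53, limma's adjusted p of 0.0119 and 0.0145) but not over all libraries (-0.21 and -0.13, limma's adjusted p of 0.634 and 0.855, and up to 0.901 and 0.996 over the alternatives), where Smyd2 SMC-/- replicate 1 was above each control. Without that library they were at -0.42 and -0.48. *Aldh3b1* was at 14.66, 38.85 and 35.21 FPKM across control replicates 1 to 3, against 7.37, 18.16 and 18.58 FPKM across Smyd2 SMC-/- replicates 1 to 3, the lower library of each pair being Smyd2 SMC-/- (log2 fold change -0.95, limma's adjusted p = 0.318, or 0.0145 with the replicate block, and 0.000578 to 0.581 over the alternatives), and -0.55 without Smyd2 SMC-/- replicate 1. *Aldh6a1* was at 4.72, 13.87 and 13.86 FPKM across control replicates 1 to 3, against 8.67, 21.02 and 25.21 FPKM across Smyd2 SMC-/- replicates 1 to 3, the higher library of each pair being Smyd2 SMC-/- (0.71, limma's adjusted p = 0.499, or 0.0289 with the replicate block, and 0.00483 to 0.820 over the alternatives). Its fold change was 0.25 without control replicate 1, 0.43 without Smyd2 SMC-/- replicate 3 and 1.15 without Smyd2 SMC-/- replicate 1. *Aldh7a1* was at 22.01, 27.55 and 26.35 FPKM across control replicates 1 to 3, against 38.49, 38.68 and 42.30 FPKM across Smyd2 SMC-/- replicates 1 to 3, with no overlap of the groups (0.64, limma's adjusted p = 0.0606, or 0.0320 with the replicate block, 0.0354 after rescaling to TPM, and 0.00582 to 0.252 over the alternatives). *Tgm2*, a transglutaminase gene that retinoic acid induces in many cells, was at 14.61, 30.56 and 29.22 FPKM across control replicates 1 to 3, against 4.33, 30.67 and 29.22 FPKM across Smyd2 SMC-/- replicates 1 to 3, lowest in replicate 1 of each genotype as *Aldh1a1* was.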
